A study of Mus musculus with 141 samples.

Results

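BXH and BXD are panels of recombinant inbred mouse strains that share 1 parent, C57BL/6J, and differ in the other, which is C3H/HeJ for BXH and DBA/2J for BXD. Transcript levels in inguinal white adipose tissue (iWAT), the main subcutaneous fat depot of the mouse, were compared between the panels. The BXH libraries were those whose strain name starts with BXH, 5 in number, and the BXD libraries were those whose strain name starts with BXD, 64 libraries after mouse numbers 443 and 886 were left out. The 5 BXH libraries came from a BXH6/TyJ male, a BXH9/TyJ male, a BXH22/KccJ female, a BXH8/TyJ male and a BXH8/TyJ female, so that 4 strains were represented. The 64 BXD libraries came from 30 females and 34 males of 38 strains, of which 26 gave a library of each sex. Among them, BXD24/TyJ-Cep290<rd16>/J, with a female and a male, carries a named mutation of Cep290. A female and a male of each of C3H/HeJ, C57BL/6J and DBA/2J, 6 libraries, served as parental reference and entered no test. The mice of all groups had received a high-fat, high-sucrose diet, each library came from 1 mouse, and no batch was labelled. The remaining 64 libraries of the series came from other strains and were not used.

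In a recombinant inbred strain each stretch of the genome is fixed for the allele of one parent or the other. A cis-acting difference between C3H/HeJ and the other parents is therefore expected to appear in some BXH strains and in no BXD strain, and a difference private to DBA/2J in some BXD strains and in no BXH strain. A transcript for which C57BL/6J is the odd parent segregates in both panels. Inguinal fat also holds blood vessels, immune cells, a lymph node, mammary epithelium in females and at times adjoining muscle, and in bulk tissue fewer cells of a type and less RNA per cell cannot be told apart.

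Summed estimated counts ran from 22186406 to 36577085 in BXH, from 12057946 to 46602779 in BXD and from 25281997 to 34140282 in the parents. Mitochondrially encoded transcripts took a median of 6.419% of the counts in BXH, 8.866% in BXD and 8.204% in the parents. Levels below are CPM, read counts relative to library size scaled by the trimmed mean of M values, and fold changes are log2 values, BXH minus BXD, adjusted for sex. Several strains gave 2 libraries and BXH8/TyJ gave 2 of the 5 BXH libraries, so libraries were not all independent.

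The panel labels were first checked with genes chosen on the parental libraries alone. A gene was called private to a parent when that parent differed from both others by at least 2 on the log2 scale, in the same direction, in both sexes. A library was called like that parent when its level lay on the parent's side of the midpoint. C3H/HeJ was privately higher for 82 genes and privately lower for 22. Of these, 50 were at a C3H/HeJ-like level in the BXH6/TyJ male, 52 in the BXH9/TyJ male, 26 in the BXH22/KccJ female and 61 (58.7%) in each BXH8/TyJ library. In BXD the share ran from 0.0 to 27.9%, with a median of 6.25%. The BXH22/KccJ female was therefore inside the BXD range and the other BXH libraries were above it. Of 93 genes private to DBA/2J, 2.15 to 9.68% were at a DBA/2J-like level in BXH, against 8.6 to 64.5% (median 45.2%) in BXD. The BXD6/TyJ female (8.6%) was inside the BXH range, and the BXD20/TyJ male (10.8%) was just above it. For 208 genes private to C57BL/6J, the shared parent, the share was 29.8 to 48.1% in BXH and 33.2 to 76% in BXD. The female and male of BXH8/TyJ lay on the same side of the midpoint for 92.3% of the C3H/HeJ-private genes. Among those genes, 6 were C3H/HeJ-like in all 5 BXH libraries, 48 in 3 of them and 9 in none.

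**Figure D1:**
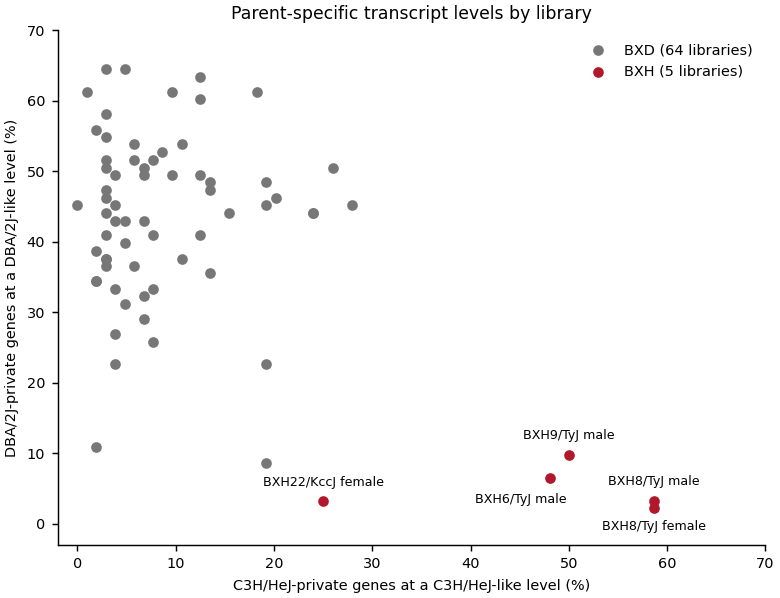
Each point is a library, with the percent of C3H/HeJ-private genes at a C3H/HeJ-like level on the x axis and the percent of 93 DBA/2J-private genes at a DBA/2J-like level on the y axis. The BXH libraries sit between 2.15 and 9.68% on the y axis, and the BXH22/KccJ female is nearest to BXD on the x axis, at 25%.

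Of 19675 genes tested, 190 (0.966%) were higher and 88 (0.447%) were lower in BXH at an adjusted p below 0.05, or 278 (1.41%) in all. Of the C3H/HeJ-private genes, 40 (38.5%) were called, all on the C3H/HeJ side, and of the 93 DBA/2J-private genes, 6 were called, all on the side away from DBA/2J. Of the C57BL/6J-private genes, 1 of 208 was called. C3H/HeJ was the outermost parent in the direction of the call, in both sexes, for 70 of the 88 lower genes (79.5%), for 62.1% of the 190 higher genes and for 32.9% of all genes tested. In 7 genes (0.0356% of those tested) the 5 BXH libraries all lay outside the range of the 64 BXD libraries, namely Ahcy, Gm4737, Abhd1, Edem2, Glb1l, Adgrf3 and Gm6645. These were not all separate loci. Ahcy and Edem2 lay in 1 run of 7 called genes on chromosome 2 (chr2:154791096-156309952). Adgrf3 (chr5:30193431-30205722) and Abhd1 (chr5:30950066-30955091) were neighbours on chromosome 5.

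The calls depended on single libraries. When each BXH library was left out in turn, 62 of the 278 calls passed in all 5 fits, 38 of them higher and 24 lower. Without the BXH8/TyJ male 79 higher and 52 lower calls were lost, and without the BXH9/TyJ male 81 and 46. The losses were 59 and 54 without the BXH6/TyJ male and 53 and 46 without the BXH8/TyJ female. They were 36 and 17 without the BXH22/KccJ female. For 60 of the 62, C3H/HeJ was the outermost parent in the direction of the call in both sexes. Pseudogenes made up 21.6% of the higher genes, 11.4% of the lower genes and 8.2% of the genes tested. Genes for which at least 50% of the 31-base words of their transcripts also occur in another gene made up 23.5% of the called genes that had a value and 9.47% of those tested, and the reads of such genes cannot be assigned to one copy with certainty.

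Ahcy, which encodes the enzyme that hydrolyses S-adenosylhomocysteine, and its near-identical copy Gm4737 show the pattern. Ahcy lies on chromosome 2 (chr2:155059310-155074497, GRCm38) and Gm4737 on chromosome 16 (chr16:46152985-46155077), and 93.2% of the 31-base words of Gm4737 also occur in Ahcy. Their longest reading frames are each 1299 bases long and differ at 4 positions, an identity of 99.7%. The stretch from base 385 to 474 of the frame, from the GENCODE M21 transcripts of the C57BL/6J reference, is printed because it holds 2 of the 4 differences, which are in capitals.
Ahcy: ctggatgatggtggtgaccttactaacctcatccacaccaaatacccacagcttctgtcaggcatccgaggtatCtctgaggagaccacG
Gm4737: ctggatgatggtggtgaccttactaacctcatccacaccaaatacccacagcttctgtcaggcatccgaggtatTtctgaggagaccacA

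Ahcy was at 3.09 CPM in the BXH6/TyJ male, 3.19 in the BXH9/TyJ male, 2.3 in the BXH22/KccJ female, 2.05 in the BXH8/TyJ male and 1.46 in the BXH8/TyJ female, against a lowest, median and highest BXD library of 16.5, 26.8 and 39.5 CPM. The difference was -3.49 (SE 0.157, adjusted p = 3.23e-29) and every BXH library was below every BXD library. Gm4737 ran the other way, with 28.4, 28.1, 35.6, 28.3 and 39.7 CPM in the same order of BXH libraries, 0 in 56 of the 64 BXD libraries and 9.7 CPM in the highest. Its difference was 7.10 (SE 0.85, adjusted p = 3.82e-09). The C3H/HeJ parents had 2.09 (female) and 0.79 CPM (male) of Ahcy with 40.9 and 26.4 CPM of Gm4737, while Gm4737 was at 0 in both other parents. The sum of both genes was 30.3 to 41.1 CPM in BXH against 20.03, 26.93 and 39.82 CPM (lowest, median, highest) in BXD. That sum was higher in BXH by 0.33 on the log2 scale (SE 0.066, two-sided exact permutation test over libraries, p = 0.000634, 0.00444 after Benjamini-Hochberg adjustment over 7 such sums), and the groups overlapped. The regroupings took every library as independent, though some came from the same strain, so the p-values of these sums may be too small.

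**Figure D2:**
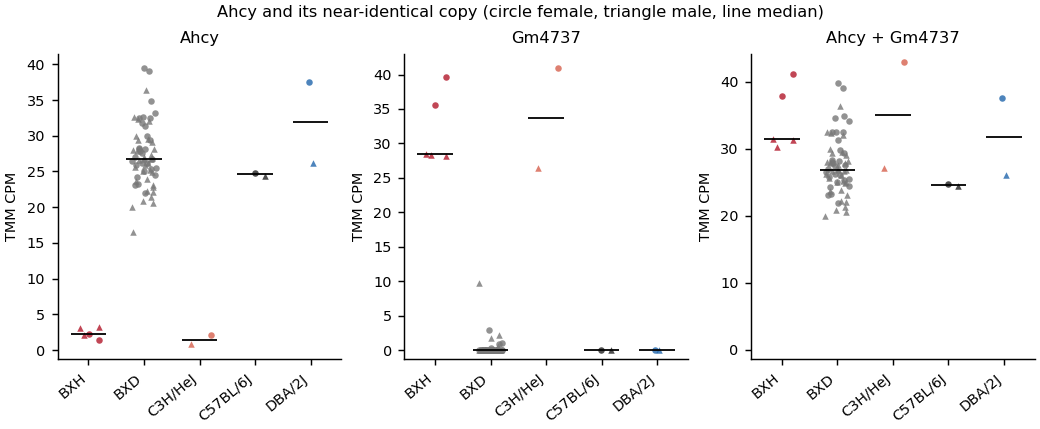
CPM of Ahcy, Gm4737 and their sum, with 1 point a library for BXH, BXD and the parents, circles for females, triangles for males and a line at the median. BXH and C3H/HeJ are low for Ahcy (at most 3.19 CPM in BXH) and high for Gm4737, and the sums overlap with BXD.

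Other genes that share words, as copies or as overlapping annotations, were compared alone and as sums. Gbp6, an interferon-inducible guanylate-binding protein, was lower (-1.64, SE 0.265, adjusted p = 1.3e-05), with 79.5 CPM in the BXH6/TyJ male and 17.2 to 25.1 CPM in the other BXH libraries against a BXD median of 89.8. Gm43302, which shares 95.7% of its words with Gbp6, was higher (3.05, SE 0.664, adjusted p = 0.00335). It is not a separate copy, since its annotation (chr5:105214907-105293695) overlaps Gbp10 (chr5:105215699-105239533) and Gbp6 (chr5:105270702-105293698). Its BXD median was 4.06 CPM, and the highest BXD library, at 137.2 CPM, was above the highest BXH library (77.9 CPM). Gbp6, Gbp10 and Gm43302 together differed by -0.01 (SE 0.13, exact permutation p = 0.981). Gm15772, a copy of the ribosomal protein gene Rpl26, had 286.7, 229 and 231 CPM in the BXH6/TyJ male and the BXH8/TyJ male and female, and 0.539 and 0.212 CPM in the BXH9/TyJ male and the BXH22/KccJ female. Rpl26 itself was at 135.4, 107.7 and 125.2 CPM in the former 3 and at 625.9 and 411.5 CPM in the latter, and the sum of both genes was higher in BXH by 0.38 (SE 0.19, exact permutation p = 0.0109, adjusted 0.0254). Gm4366, a copy of the elongation factor gene Eef1g, was at 105.1 CPM in the BXH9/TyJ male, at least 87.8 CPM in each BXH8/TyJ library and at most 0.321 CPM in the other BXH libraries. Eef1g and Gm4366 together were higher by 0.22 (SE 0.0894, exact permutation p = 0.0293, adjusted 0.041). Rps26-ps1 was high in the BXH9/TyJ male alone, with at most 0.212 CPM in the other BXH libraries and 89.9 (male) and 150.9 CPM (female) in C3H/HeJ (8.28, SE 0.612, adjusted p = 8.24e-18). Rps26 itself was at 237.5 CPM in the BXH9/TyJ male and at 220.2 to 258.5 CPM in the other BXH libraries. Within BXH it was thus not lower in the 1 library where the copy was high. In C3H/HeJ, where the copy was high too, Rps26 was at 112.4 (male) and 192.8 CPM (female). C57BL/6J and DBA/2J were at 145.3 and 181.2 CPM (males) and at 225.5 and 284.4 CPM (females). The sum of Rps26 and Rps26-ps1 was higher in BXH by 0.48 (SE 0.166, exact permutation p = 0.00419, adjusted 0.0147). Gm15772 and Gm4366 too were high in both C3H/HeJ libraries. In BXD, Gm15772 was at most at 1.06 CPM and Rps26-ps1 at most at 0.379 CPM. Gm4366 had a BXD median of 0.123 CPM, but its highest BXD library was at 75.2 CPM.

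Among the 62 calls that passed in all leave-one-out fits, 23 had under 5% of their words in another gene, 12 of them higher and 11 lower. These genes were picked for description after their values were seen. Edem2, which acts in the disposal of misfolded glycoproteins from the endoplasmic reticulum, lies on chromosome 2 and was at 42, 41.6, 46.1, 42.9 and 44.1 CPM in the BXH libraries (order as above) against 25, 31.2 and 38.8 CPM in BXD, and at 44.3 and 43.5 CPM in C3H/HeJ. The difference was 0.47 (SE 0.0541, adjusted p = 9.38e-10) and the panels did not overlap. Adgrf3, an adhesion G protein-coupled receptor on chromosome 5, was at 0.205 to 3.17 CPM in BXH and at most 0.175 CPM in BXD, so that its level was low in every library (5.16, SE 0.486, adjusted p = 4.78e-13). Morc1, known for transposon silencing in the germline, was at 0.242 to 2.41 CPM in BXH against 0.028 to 0.677 CPM in BXD (2.30, SE 0.311, adjusted p = 1.56e-07).

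The 11 lower ones were Meiob, Ppfia4, Catip, Drd1, Cdh2, Arsk, Prkag2, Stt3b, Lman2, Snapc1 and Exoc3. Stt3b, a catalytic subunit of the oligosaccharyltransferase, was at 197.1, 160.9, 159.6, 172.5 and 158.3 CPM in BXH against a BXD median of 262.1 CPM (-0.61, SE 0.118, adjusted p = 0.000513). Lman2, a cargo lectin of the secretory pathway, was at 96.9 to 136.1 CPM against a BXD median of 181.4 (-0.59, SE 0.124, adjusted p = 0.00194). Prkag2, a regulatory subunit of AMP-activated protein kinase, was at 36.9 to 46.2 CPM against 38.2 to 98.1 CPM (median 62.9; -0.63, SE 0.118, adjusted p = 0.000289), with C3H/HeJ at 35.5 and 39.9 CPM. Exoc3, a subunit of the exocyst, was at 33.3 to 43.8 CPM against 41.7 to 71.3 CPM (-0.48, SE 0.0749, adjusted p = 7.4e-06). With limma on log2(TPM + 1), Exoc3 differed by -0.10 and Lman2 by -0.20, and neither they nor Stt3b (-0.41) passed. Meiob, a meiosis gene, was at 0.0802, 0.0415 and 0.242 CPM in the BXH6/TyJ, BXH9/TyJ and BXH22/KccJ libraries and at 0.977 and 1.82 CPM in BXH8/TyJ, against 1.19 to 4.49 CPM in BXD (-1.90, SE 0.343, adjusted p = 0.00014). Ppfia4, a liprin scaffold protein, was at 0.401 to 1.87 CPM in 4 BXH libraries and 4.36 CPM in the BXH22/KccJ female against a BXD median of 5.86 (-1.77, SE 0.309, adjusted p = 7.28e-05).

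Abhd1 and Glb1l also did not overlap between the panels, but share words with other genes. Abhd1 was at 14.2 to 24.5 CPM in BXH, 1.74 to 4.49 CPM in BXD and 17.3 and 24.2 CPM in C3H/HeJ (2.77, SE 0.112, adjusted p = 6.89e-32), and it shares 75.9% of its words with the overlapping gene Preb, which was at 51.7 to 55.8 CPM in BXH and 49.5 to 70.2 CPM in BXD. Glb1l was at 12.8, 9.04, 12.7, 13.1 and 12.6 CPM in BXH and 13.8, 20.1 and 28.1 CPM in BXD (-0.75, SE 0.0952, adjusted p = 2.32e-08), with C3H/HeJ at 11.6 and 12.6 CPM. Apol10b, of the apolipoprotein L family, was lower (-1.54, SE 0.203, adjusted p = 8.6e-08), at 2.7 to 7.22 CPM against 5.8, 13.1 and 22.9 CPM.

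**Figure D3:**
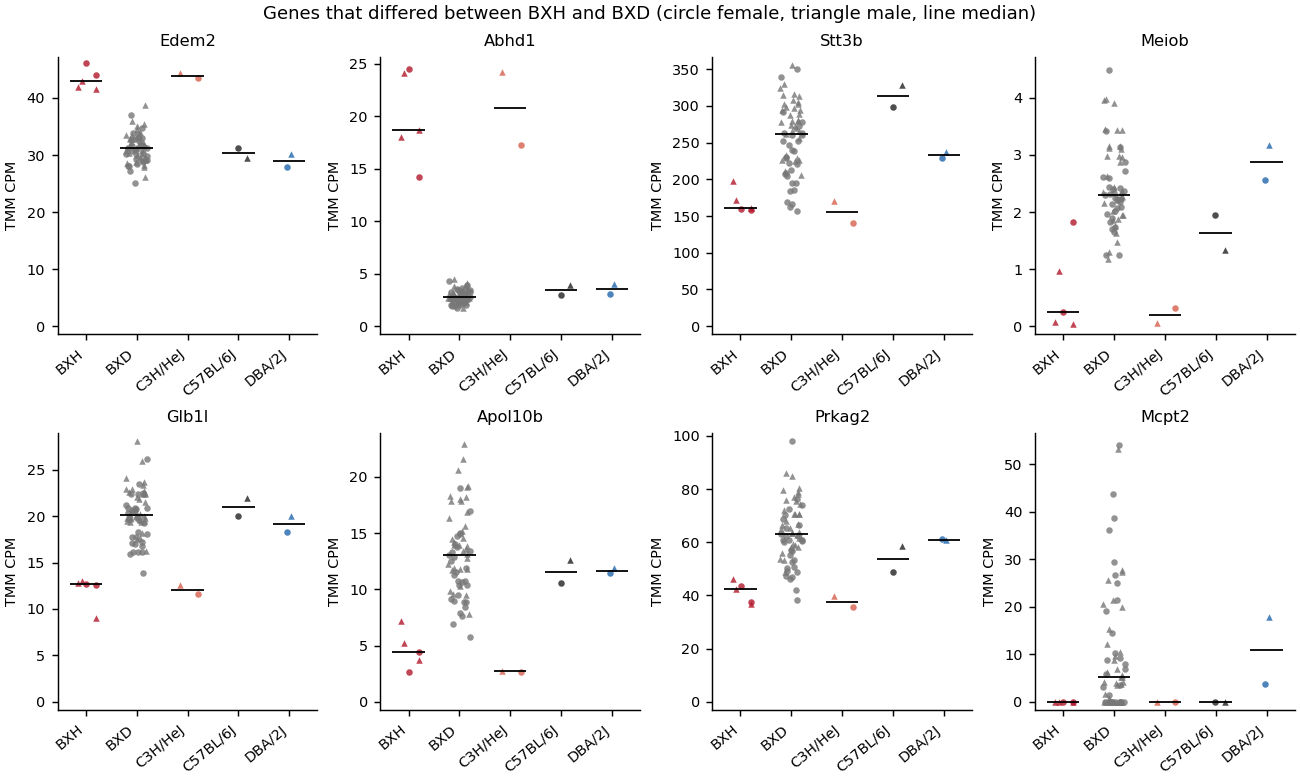
CPM of 8 genes by library, with BXH, BXD and the 3 parental strains on the x axis, circles for females, triangles for males and a line at the median. Edem2, Abhd1 and Glb1l do not overlap between BXH and BXD, and Mcpt2 is near 0 in BXH and in part of BXD.

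For Mcpt2 and Elavl4, large decreases taken by the naming rule, BXD libraries lay on both sides of the midpoint of C57BL/6J and DBA/2J. Mcpt2, a mast cell protease, was at 0 in 4 BXH libraries and at 0.0303 CPM, 1 read, in the BXH22/KccJ female. In BXD it ran from 0 to 54 CPM with a median of 5.34, and 42 BXD libraries were DBA/2J-like, the 2 libraries of a strain falling on the same side in 25 of 26 strains. DBA/2J was at 3.87 (female) and 17.9 CPM (male) and both other parents were at or below 0.0342 CPM. Its call (adjusted p = 0.0495) was lost when any single BXH library was left out. Elavl4, a neuronal RNA-binding protein, was at most 0.228 CPM in BXH against a BXD median of 1.21 (-3.39, SE 0.919, adjusted p = 0.0378), with DBA/2J at 1.53 and 1.91 CPM and the other parents at most 0.222 CPM. Its call too was lost without any 1 of the BXH libraries. Orm3, an acute phase orosomucoid gene, was at 0.423 to 0.978 CPM against a BXD median of 3.65 (-3.01, SE 0.799, adjusted p = 0.0313). Females and males were at 14.9 and 2.43 CPM in DBA/2J, 4.42 and 1.04 CPM in C57BL/6J, and 1.88 and 0.663 CPM in C3H/HeJ. Lyrm7, an assembly factor of respiratory complex III, was at 2.18 to 7.42 CPM against a BXD median of 10.5 (-1.39, SE 0.376, adjusted p = 0.036), with DBA/2J at 16.8 and 15 CPM and the other parents at 2.34 to 6.61 CPM. The call of Orm3 was lost without any 1 of 4 BXH libraries (all but the BXH22/KccJ female), and that of Lyrm7 without the BXH6/TyJ male or either BXH8/TyJ library. The remaining lower genes taken by the naming rule were Cd300ld4 (-3.11), Ppbp (-1.43) and BC035947 (-1.42), of which Cd300ld4 shares 96.2% of its words with Cd300ld5 and lost its call without any 1 of 4 BXH libraries (all but the BXH9/TyJ male). Cd300ld3, Cd300ld4 and Cd300ld5 together differed by -0.70 (SE 0.213, exact permutation p = 0.0836, adjusted 0.0975).

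Of the higher genes taken by the naming rule, Fndc8 (1.20, SE 0.231, adjusted p = 0.000491) and Wdr31 (1.19, SE 0.206, adjusted p = 5.62e-05) passed in all leave-one-out fits. Cd300lf, an inhibitory receptor of myeloid cells, was at 15 and 13.6 CPM in BXH8/TyJ and 3.53 to 6.55 CPM in the other BXH libraries, against a BXD median of 1.98, and C3H/HeJ was at 16.3 and 14.5 CPM (1.52, SE 0.417, adjusted p = 0.041, lost without the BXH9/TyJ male or either BXH8/TyJ library). Acpp, a prostatic acid phosphatase, was at 5.94 to 29.7 CPM against a BXD median of 4.17 (1.48, SE 0.392, adjusted p = 0.0315, lost without 3 of the 5 libraries). Slc23a1 (1.25), an ascorbate transporter, Begain (1.06), Krtcap3 (1.99-fold on the linear scale) and Dynlt1a (0.88) were taken too, with the amylase copies described below.

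On chromosome 18 the clustered protocadherins, adhesion molecules known from neurons, gave 8 lower genes, namely 5 of 21 Pcdhb genes tested, 3 of 22 Pcdhg genes and 0 of 11 Pcdha genes, against 0.447% lower over all genes tested. None of 54 clustered protocadherins was called higher and 50 had a negative difference (median -0.64, against -0.0034 over all genes tested). Pcdhga5 was at 1.44, 2.53, 5.51, 1.66 and 3.14 CPM in BXH against 1.87, 7.08 and 14.1 CPM in BXD (-1.31, SE 0.269, adjusted p = 0.00138), with C3H/HeJ at 1.06 and 1.14 CPM and the other parents at 5.1 to 10.6 CPM. Pcdhga5 and Pcdhb19 (-0.93) passed in all leave-one-out fits and the other 6 did not. These genes share 5.17 to 52.3% of their words with other genes. On chromosome 17, Dynlt1b, a dynein light chain, was at 96.1, 94.9 and 100.2 CPM in the BXH6/TyJ, BXH9/TyJ and BXH22/KccJ libraries and at 34 and 33.4 CPM in BXH8/TyJ, against a BXD median of 36.9 (0.92, SE 0.161, adjusted p = 7.74e-05). It shares 86.9% of its words with other genes.

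One library carried a separate set of calls. The pancreatic amylase genes Amy2a2, Amy2a3 and Amy2a4 were the largest increases taken by the naming rule (5.58 each, SE 0.939, adjusted p = 3.36e-05), and their values were identical in every library and 100% of their words are shared. They were at 110.6 CPM in the BXH8/TyJ male and at 0.0401 to 0.364 CPM in the other BXH libraries, against at most 5.04 CPM in BXD. A set of 15 digestive-enzyme genes chosen after seeing these values, among them Cpa1, Cela2a, Ctrb1 and Pnlip, were all called higher, and none of the 15 was called without the BXH8/TyJ male. Their summed level was 352 CPM in the BXH8/TyJ male, 2.73 CPM in the female of the same strain, 0.207 to 2.06 CPM in the other BXH libraries, and 0.878 (median) to 28.7 CPM (highest) in BXD. The part of pancreatic tissue in this library was not tested.

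**Figure D4:**
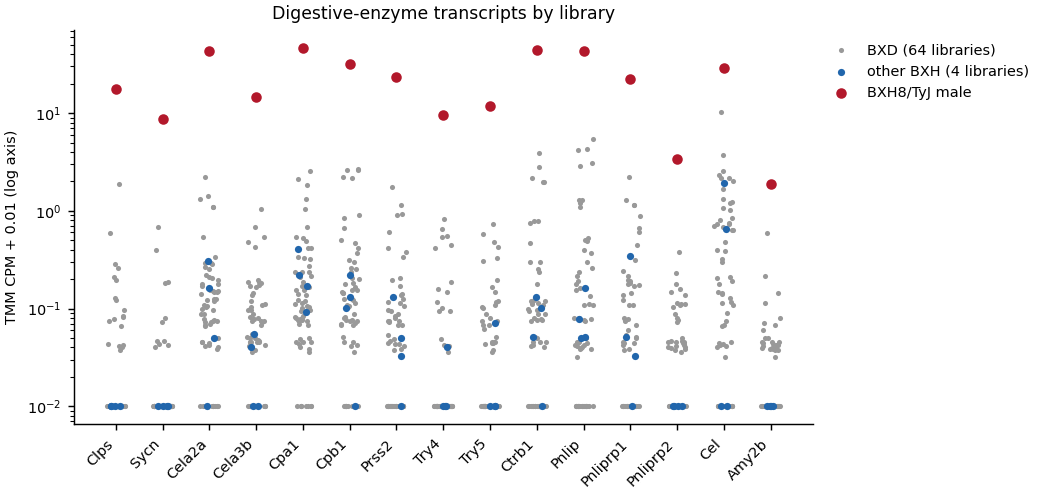
CPM plus 0.01 on a log axis for 15 digestive-enzyme genes, with 1 point a library. The BXH8/TyJ male is the highest library for each gene, and the other 4 BXH libraries lie among the 64 BXD libraries.

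Of 13 genes listed for known natural alleles of inbred strains, 12 were tested and 1 was called, against 1.41% of all genes tested. Cep290, a ciliary transition zone protein, was higher (0.58, SE 0.122, adjusted p = 0.002), at 13.2, 19.6, 9.3, 12 and 12.9 CPM against 5.74, 8.82 and 15.1 CPM, and the call was lost without the BXH9/TyJ male (adjusted p = 0.247). Without both libraries of the Cep290 mutant BXD24/TyJ-Cep290<rd16>/J the difference was 0.58 (adjusted p = 0.0028). Tlr4, whose product is inactive in C3H/HeJ through a change in the protein, was at 21.3 to 28.3 CPM in BXH and 12.5 to 41.5 CPM in BXD, with C3H/HeJ at 19.7 and 24.9 CPM. Glo1, a glyoxalase, was at 157 and 180.4 CPM in the BXH6/TyJ male and the BXH22/KccJ female and at 61.9 to 73.1 CPM in the other 3, with C57BL/6J at 66.2 and 78.8 CPM and C3H/HeJ at 127.8 and 133.4 CPM. Ifi202b, an interferon-inducible DNA-binding protein, was at 23.9 CPM in the BXH6/TyJ male and 15.8 CPM in the BXH9/TyJ male and at 0 in the other 3. The parents of BXH were at most at 0.118 CPM, whereas DBA/2J was at 36 and 73.1 CPM and 28 BXD libraries were DBA/2J-like. Both BXH libraries therefore departed from either of their labelled parents at this gene.

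For the interaction of sex with panel, 31 genes (0.158%) passed. The BXH females were BXH22/KccJ and BXH8/TyJ and the males BXH6/TyJ, BXH9/TyJ and BXH8/TyJ, so sex and strain cannot be told apart within BXH. Nme7, of the nucleoside diphosphate kinase family, was at 67.6 and 162.4 CPM in the BXH6/TyJ and BXH9/TyJ males and at 14.7, 9.48 and 9.62 CPM in the other BXH libraries, against 9.04 to 18.7 CPM in BXD and at least 103.6 CPM in each C3H/HeJ library. Its interaction was 2.79 (SE 0.392, adjusted p = 1.77e-05, males minus females).

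The metabolic gene lists gave no call. Over all lists and cell type markers 390 genes were tested, 1 was called (Cep290), and 57 (14.6%) had an unadjusted p below 0.05, against 15.8% of all genes. All 16 thermogenic genes had negative differences (median -0.85), 7 with an unadjusted p below 0.05. They summed to 181 to 340 CPM in BXH (median 259), inside the BXD range of 166 to 5240 CPM (median 343). Ucp1, the uncoupling protein of brown fat, differed by -3.77 (SE 1.91, adjusted p = 0.322). Among 14 genes of de novo lipogenesis, 13 were negative (median -0.80), 7 with an unadjusted p below 0.05. The 14 summed to 8270 to 33100 CPM in BXH (median 20700) and 12200 to 106000 CPM in BXD (median 32200). Thrsp, a lipogenic regulator, was at 71.3, 13.8, 101.4, 17.2 and 77.7 CPM in BXH against a BXD median of 188.6 (-2.56, SE 0.775, adjusted p = 0.0761), and Fasn, fatty acid synthase, differed by -1.38 (SE 0.55, adjusted p = 0.2). All 13 mitochondrially encoded genes were negative (median -0.60), 8 with an unadjusted p below 0.05. They summed to 46400 to 97600 CPM in BXH (median 63200), inside the BXD range of 41300 to 318000 CPM (median 85300). DESeq2 called 1 thermogenic gene and 1 lipogenic gene, and limma-voom called 1 lipogenic and 1 mitochondrially encoded gene, of which the lipogenic count was 0 and the mitochondrially encoded count 1 with strain as a block. Over all 19675 genes DESeq2 called 431, limma-voom 401 and limma-voom with strain as a block 253.

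Markers of other cell types are given beside these lists. Of 6 endothelial markers, 5 were negative with an unadjusted p below 0.05, among them Kdr (-0.64, SE 0.185, adjusted p = 0.0574) and Pecam1 (-0.52, SE 0.158, adjusted p = 0.0792). DESeq2 called 2 of the 6, and limma-voom called 1, both without and with strain as a block. The summed endothelial markers were 585 to 979 CPM in BXH (median 613) and 571 to 2000 CPM in BXD (median 1040). The 13 lymphocyte and lymph node markers were all positive (median 1.10) with none at an unadjusted p below 0.05, and summed to 22.5 to 2040 CPM in BXH (median 1290) and 17.7 to 2650 CPM in BXD (median 44.6). All 5 Schwann cell markers were negative (median -0.74), with none at an unadjusted p below 0.05, and summed to 97.1 to 199 CPM in BXH and 63.7 to 593 CPM in BXD. The 10 skeletal muscle markers had a median of 2.27, with 2 negative and 1 at an unadjusted p below 0.05. They summed to 23.4 to 3440 CPM in BXH (median 32.7) and 5.86 to 27000 CPM in BXD (median 22.3). The 11 macrophage markers had a median of -0.21 and summed to 541 to 842 CPM in BXH, inside the BXD range. The part of cell composition in the list medians was not tested.

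**Figure D5:**
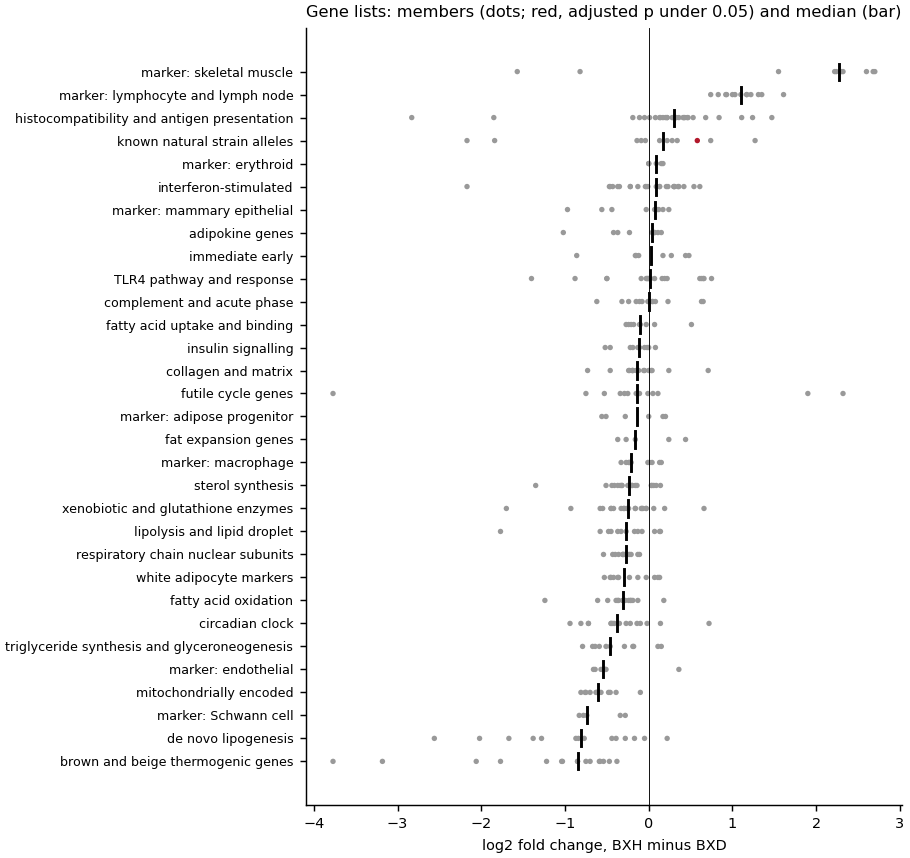
Log2 fold changes (BXH minus BXD) of the tested members of each gene list, with 1 dot a gene and a bar at the median, ordered by the median. The thermogenic, lipogenic, Schwann cell and mitochondrially encoded lists lie lowest, at medians of -0.85, -0.80, -0.74 and -0.60, and 1 dot is past the threshold.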

How the data were processed

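The deposited table of estimated counts per gene and the deposited TPM table, both made by the authors with kallisto 0.46.1 (build mm10, Ensembl annotation) and tximport, were used. Estimated counts were rounded to whole numbers. TPM served only for an alternative test. Symbols, biotypes and positions came from GENCODE M21, which matched 35935 of 36558 gene IDs. Genes were filtered with filterByExpr, scaled by TMM and compared between panels, with sex as covariate, by quasi-likelihood F tests in edgeR (version 4.0.16, R 4.3.3), with Benjamini-Hochberg adjustment at 0.05. Alternatives used DESeq2 1.42.0 and limma 3.58.1. On simulated data, 76 of 100 genes changed by 1 on the log2 scale and 93 of 100 changed by 2 were called. The simulated libraries were independent, with no strain or sex effect, and the changed genes had a mean of at least 1 CPM. Detection with libraries of the same strain or at lower levels was therefore not tested. The share of 31-base words held by another gene measured how far kallisto could split reads. Named genes were the 12 highest and 12 lowest protein-coding calls (fewer where fewer qualified, and no symbol of Gm plus digits or ending in Rik) with a mean of at least 1 CPM and all 5 BXH libraries on one side of the BXD median of their sex, the called members of each gene list (up to 4), and the tested natural alleles. Others were named after their values were seen. Some results are not reported here. Members and lists were chosen with earlier results of these data known. Depths are given with the results. The SE of each edgeR difference was taken from its quasi-likelihood F test, so it and the p-value both carry the spread between libraries.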

Additional observations from a re-analysis of the deposited data

Results flagged for a closer look

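In groups of this size, a gap test of the lowest or highest library flags about 1 in 20 groups by chance. It was run on log2 levels relative to the BXD median of the same sex, for named genes with over 3 counts in all over the BXH libraries, a minimum set after seeing the data. Among the 5 BXH libraries, the BXH8/TyJ male stood apart for Amy2a2, Amy2a3 and Amy2a4 (110.6 CPM against 0.0401 to 0.364 CPM) and for Slc23a1 (3.65 CPM against 1.49 to 2.61 CPM). The BXH6/TyJ male stood apart for Gbp6 (79.5 CPM against 17.2 to 25.1 CPM) and Ppbp (0.281 CPM against 0.455 to 0.871 CPM), and the BXH9/TyJ male for Glb1l (9.04 CPM against 12.6 to 13.1 CPM).

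The test for an interaction of sex with panel passed for Nme7 (2.79, adjusted p = 1.77e-05), Vill (-2.69, adjusted p = 5.55e-05) and Rps26-ps1 (9.07, adjusted p = 0.0175), as the difference of males minus females on the log2 scale in edgeR's interaction test. Sex and strain cannot be told apart here, since the BXH males and females were of different strains apart from BXH8/TyJ. In BXH8/TyJ, Nme7 was at 9.48 CPM in the male and 9.62 CPM in the female, and Rps26-ps1 at 0.0651 and 0.091 CPM. Vill did differ within BXH8/TyJ, at 1.14 CPM in the male and 26.5 CPM in the female. It was also higher in the female of each parent: 22.9 against 1.61 CPM in C3H/HeJ, 37.2 against 5 CPM in C57BL/6J and 25.5 against 6.64 CPM in DBA/2J.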

How the results depend on the processing

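The shares of genes called were unstable with 5 BXH libraries, and the cause was not tested. They are given as percent of the genes tested under each setting, against 0.966% higher and 0.447% lower. limma-voom gave 1.49% higher and DESeq2 1.33% lower. With strain as a block, limma-voom gave 0.961% higher and 0.325% lower, holding 61.6% and 61.4% of the genes of each direction, and called 253 genes against 401 without the block. Library totals gave 0.264% lower, 1 library per strain 0.26% lower, no filter 0.225% lower, and limma on log2(TPM + 1) and log2(TPM + 0.1) 0.163 and 0.183% lower. At least 10 counts in every library left 88 higher and 56 lower genes, in place of 190 and 88, of 13506 tested. Males alone gave 1.11% lower, females alone 0.204% higher and 0.0419% lower, BXD lines with the suffix TyJ 0.371% higher and 0.0847% lower, mice 443 and 886 kept 0.636% higher and 0.21% lower, and removal of BXH8/TyJ 0.249% lower. Leaving out 1 BXH library gave 0.565 to 1.42% higher and 0.193 to 0.887% lower. Chosen after seeing the data, leaving out genes with shared words gave 0.542% higher and 0.217% lower, and leaving out the BXH8/TyJ male with near-identical genes summed gave 0.467% higher and 0.179% lower. Library totals moved the median of all genes to 0.107. The interaction share of 0.158% became 0.0966% with library totals, 0.0601% with mice 443 and 886 kept and 0.575% without the BXH8/TyJ male.

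For 37 named genes, 658 of 853 alternative values kept direction and call, 184 lost the call and 11 changed sign. Amy2a2, Amy2a3 and Amy2a4 changed to -0.13 in females alone and -0.98 without BXH8/TyJ, ran from -1.03 (without the BXH8/TyJ male) to 5.94 when 1 BXH library was left out, and were 9.01 against BXD lines with the suffix TyJ. Arsk, an arylsulfatase (-0.64), changed to 0.02 with either TPM pseudocount. No paired analysis was possible because the panels share no replicate numbers.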
